A study of Mus musculus with 2 samples.

Results

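The Hox genes are the homeobox genes of the Hoxa, Hoxb, Hoxc and Hoxd clusters, taken here by symbol: every gene named Hox, then a, b, c or d, then a paralogue number and nothing more. The probe panel of the study held 39 of them among 19059 genes, and no gene named as a Hox antisense transcript. They were described in dorsal root ganglia of the neck, the clusters of sensory nerve cells beside the spinal cord, taken from both sides at levels C2 to C7 and pooled. There were 2 libraries, 1 per group, so no difference between the groups has a replicate check and no p-value is given. Mice of the control library were Foxp3 CreER; Penk fl/WT. Those of the second library, named Treg_Penk_KO, were Foxp3 CreER; Penk fl/fl. Foxp3 CreER is a tamoxifen-inducible recombinase driven by a gene of regulatory T cells, and Penk encodes the opioid precursor proenkephalin, so the control mice carry 1 floxed Penk allele as well. All mice had received tamoxifen and 3 days of imiquimod, a skin irritant used to raise psoriasis-like inflammation, and the tissue was fixed in 4% paraformaldehyde. Strain, age and sex of the mice and their number per pool were not given in the sources used here.

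Hox genes encode DNA-binding proteins with a shared homeodomain, and in each cluster their order along the chromosome follows the order of their expression along the body axis. Genes with low paralogue numbers are expressed from the hindbrain or upper neck backward, and those with high numbers only in the trunk, the limbs and the tail. Many adult cells, sensory neurons among them, keep the Hox code of the level at which they arose. Neighbouring genes of a cluster share regulatory elements, while genes with the same number in different clusters (paralogues) arose by duplication and have the most similar homeoboxes.

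The 4 clusters lay on 4 chromosomes of GRCm39, the build of the count files, with the genes of each on a single strand and their homeoboxes in paralogue order. Hoxa held 11 genes over 105.3 kb of chromosome 6, Hoxb 10 genes over 174.0 kb of chromosome 11, Hoxc 9 genes over 115.7 kb of chromosome 15 and Hoxd 9 genes over 96.8 kb of chromosome 2. In all 39 genes the homeobox sat whole in 1 exon, the last of the coding transcript. In the GENCODE annotation 11 of the Hox genes overlapped another Hox gene. Hoxa3 spanned Hoxa4, Hoxa5 and Hoxa6, Hoxd3 overlapped Hoxd4, and Hoxc5 overlapped Hoxc6, Hoxc8, Hoxc9 and Hoxc10. Counts of these genes are uncertain to the extent that a probe pair reads both, and probe positions were not used here.

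The homeoboxes of paralogue group 8 are printed because its 3 genes had 3 different patterns across the ganglion, with Hoxb8 highest in touch neurons, Hoxc8 in proprioceptors and Hoxd8 in vessels. Capitals mark bases that differ from Hoxb8, which is all in lower case as the reference, and each runs 5′ to 3′ on the coding strand.
Hoxb8, chr11:96175000-96175179 (+ strand): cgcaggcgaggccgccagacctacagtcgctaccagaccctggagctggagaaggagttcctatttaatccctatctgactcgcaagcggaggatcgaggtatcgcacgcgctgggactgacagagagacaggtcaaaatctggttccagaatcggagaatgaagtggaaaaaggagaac
Hoxc8, chr15:102901003-102901182 (+ strand): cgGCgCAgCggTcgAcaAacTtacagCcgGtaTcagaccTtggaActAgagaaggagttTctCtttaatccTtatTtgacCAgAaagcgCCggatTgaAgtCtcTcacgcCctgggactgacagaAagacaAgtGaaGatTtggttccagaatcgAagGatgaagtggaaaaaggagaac
Hoxd8, chr2:74536869-74537048 (+ strand): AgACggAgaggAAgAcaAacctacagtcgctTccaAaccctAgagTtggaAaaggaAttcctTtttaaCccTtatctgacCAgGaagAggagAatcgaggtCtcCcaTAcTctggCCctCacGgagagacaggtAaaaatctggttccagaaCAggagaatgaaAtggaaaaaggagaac
Hoxc8 differed from Hoxb8 at 36 of 180 bases, 30 of them at the third codon position, and Hoxd8 differed from Hoxb8 at 35, of which 24 were at that position. Hoxc8 and Hoxd8 were 73.3% identical. Over all pairs of the 39 genes, homeobox identity had a median of 80.6% within a paralogue group (42 pairs, 67.2% to 93.9%), 68.3% between neighbours in a cluster (35 pairs) and 60.3% otherwise (664 pairs).

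The 250 bases before the start of the canonical transcript are given for Hoxd8 and Hoxd9, again because both were high in endothelial-like cells. AGGTCA, a half-site bound by nuclear receptors such as those of retinoic acid, is in capitals.
Hoxd8, chr2:74534718-74534967 (+ strand): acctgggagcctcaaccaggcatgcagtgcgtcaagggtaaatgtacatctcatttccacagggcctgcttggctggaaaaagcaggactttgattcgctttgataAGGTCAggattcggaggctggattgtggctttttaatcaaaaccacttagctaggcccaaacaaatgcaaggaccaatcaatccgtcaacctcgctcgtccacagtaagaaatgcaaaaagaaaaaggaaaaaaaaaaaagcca
Hoxd9, chr2:74527758-74528007 (+ strand): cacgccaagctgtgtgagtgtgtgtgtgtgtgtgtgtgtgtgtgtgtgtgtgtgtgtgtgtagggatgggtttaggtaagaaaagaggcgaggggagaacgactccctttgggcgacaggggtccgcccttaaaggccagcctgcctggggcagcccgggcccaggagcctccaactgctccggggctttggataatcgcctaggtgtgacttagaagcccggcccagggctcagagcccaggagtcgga
AGGTCA was found once before Hoxd8, at 144 bases from the start, and not before Hoxd9. On either strand it lay in 6 of 39 Hox windows (15.4%) and in 13.1% of the same windows of 21770 genes. AGGAAG, a core read by ETS factors of vessels and other tissues, was in neither of the printed windows, in 28.2% of Hox windows and in 28.9% of all. TGATTNAT, a joint site of PBX and HOX proteins, lay in 3 Hox windows (7.7%) against 2.6% of all. These matches describe letters only.

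In the fixed-RNA assay used, a pair of short probes reads a stretch of each transcript, and a unique molecular identifier (UMI) counts each ligated pair once. Genes differ in their number of probe pairs, which was not known here, and levels of different genes were therefore not compared. Levels are given as CPM, the UMIs of a gene as a share of all UMIs in the class on the usual counts-per-1e6 scale, with exact 95% intervals for counting error alone. In all, the control library held 259136217 UMIs in 15710 cells (median 2481) and the Treg_Penk_KO library 156441497 in 12067 (median 2243). Of the droplet barcodes, 4723 occurred in both libraries, and multiplets were estimated at 22.8% and 16.8% of cells. Penk had 582 UMIs in the control library and 4 in the Treg_Penk_KO library, and 341 and 1 in neurons. The low Penk count thus extended to cells that are not regulatory T cells, for which no class was found (Foxp3 had 10 and 5 UMIs). Whether the Penk probes lie in the floxed stretch was not known here.

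Cells were grouped with the Hox genes left out, so that their levels played no part in the classes, and each class is named for the markers it resembles. Neurons numbered 7132 among control and 5505 among Treg_Penk_KO cells, and carried sympathetic neuron markers at a sum of 0.961 and 0.446 CPM and spinal cord neuron markers at 1.6 and 2.25 CPM. Neuron markers were also counted in every other class. The summed level of 12 general neuron markers was 0.633 and 0.645 of the neuronal level in macrophage-like cells, 0.508 and 0.608 in endothelial-like, 0.586 and 0.614 in fibroblast-like, 0.587 and 0.555 in satellite glia-like and 0.662 and 0.660 in myelinating Schwann-like cells, with none of the 12 at 0. Macrophages arise from blood precursors and were taken here as the background level of each Hox gene. Whether they express Hox genes of their own was not tested. The part of this carry-over in Hox counts of a class was not tested, and values of macrophage-like cells are given beside those of other classes.

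With these probes, the UMIs of the Hox genes ended at paralogue 9. Over all cells the control library had 68930 Hox UMIs and the Treg_Penk_KO library 39789, and 28 and 27 genes had more than 3 UMIs, the floor used here. Summed by paralogue number in the control and Treg_Penk_KO library, group 1 had 10018 and 6188 UMIs, group 2 had 2761 and 1604, and group 3 had 4649 and 2774. Group 4 had 6417 and 4024, group 5 had 6911 and 4213, group 6 had 7436 and 4089, and group 7 had 6316 and 3256. Group 8 reached 19802 and 11108, group 9 had 4596 and 2512, and the 12 genes of groups 10 to 13 together had 24 and 21. All 24 genes with at least 100 UMIs in both libraries belonged to groups 1 to 9.

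Hoxb1, which patterns a single segment of the embryonic hindbrain, was the exception at the front end, with 1 UMI in each library. Within group 9, Hoxd9 had 4322 and 2346 UMIs, Hoxb9 165 and 101, Hoxa9 85 and 48, and Hoxc9, which sets thoracic identity in motor neurons, 24 and 17. Of groups 10 to 13 only Hoxd10, a gene of the lumbar cord and limb, stayed above the floor in both libraries, with 16 UMIs each. Hoxc10 had 4 and 2, and the other 10 genes had at most 1 in a library. Hoxa11, Hoxc12, Hoxd12, Hoxc13 and Hoxd13 were at 0 in both, which does not exclude a level too low to be counted here.

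**Figure D1:**
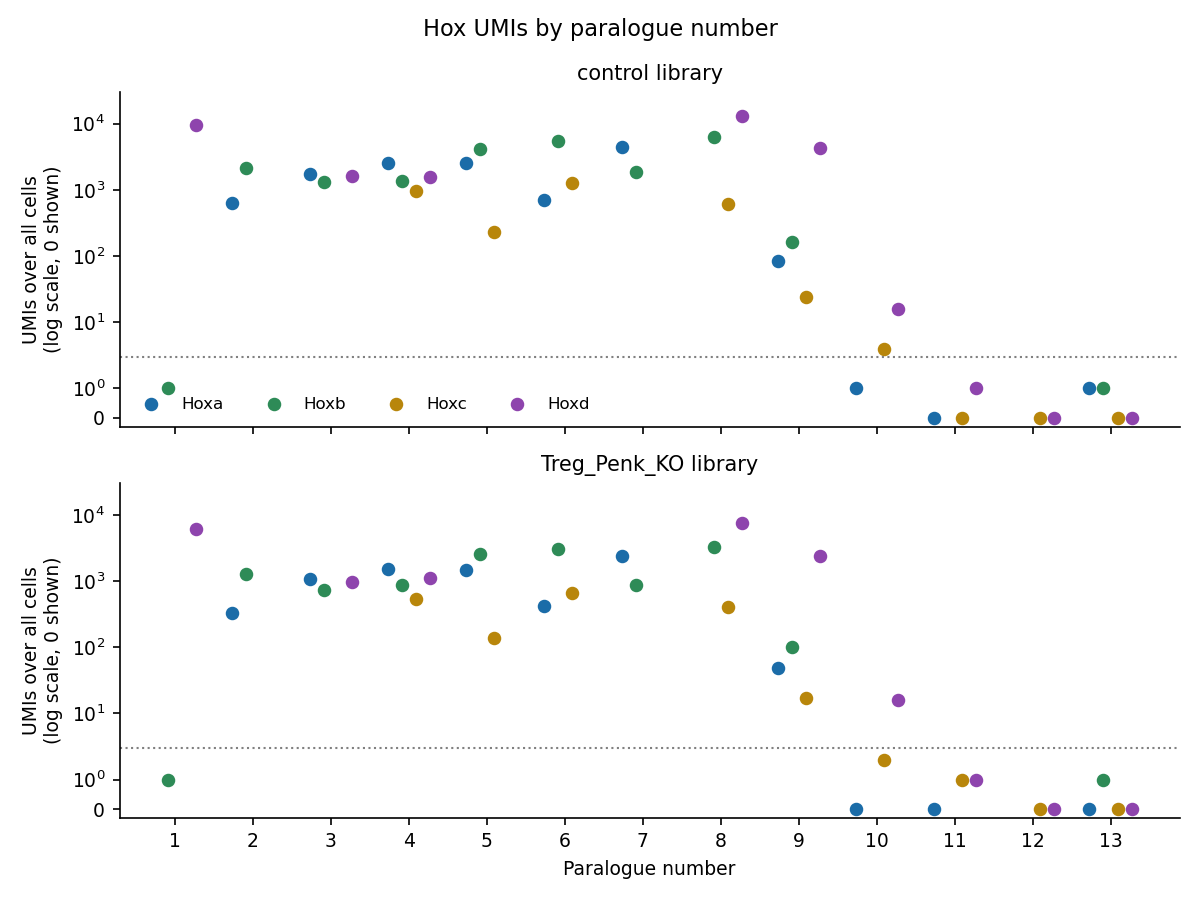
UMIs of single Hox genes over all cells (y axis, log scale with 0 shown) by paralogue number (x axis), 1 panel per library, coloured by cluster; the dotted line is the floor of 3 UMIs. In both panels all points but Hoxb1 of groups 1 to 9 lie above the floor, and of groups 10 to 13 Hoxd10 has 16 UMIs in each library.

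Neurons held 66.3% to 89.0% of the control UMIs of each of the 24 genes, and 49.6% to 90.1% of the Treg_Penk_KO UMIs. Scaled to the UMIs of a class, though, neurons were not the richest class. The Hox genes summed to 267 CPM in control and 254 in Treg_Penk_KO neurons, to 247 and 236 in satellite glia-like cells and to 229 and 213 in myelinating Schwann-like cells. Fibroblast-like cells had 306 and 297 CPM, endothelial-like cells 445 and 404 and mural-like cells, which wrap vessels, 491 and 443. Macrophage-like cells were lowest among the 7 named classes compared, at 199 (95% interval 176 to 224) and 174 (151 to 199). A small meningeal/arachnoid-like class (51 and 41 cells) was named as well but left out of the comparisons between classes.

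Hoxd8 and Hoxd9 had their highest level among the 7 named classes compared in endothelial-like cells in both libraries. Hoxd8 had 664 UMIs in control and 550 in Treg_Penk_KO endothelial-like cells, which gave 157 CPM (146 to 170) and 139 CPM (128 to 151). Neurons had 49.5 and 47.2 CPM of Hoxd8, and macrophage-like cells 35.6 and 24.6. The endothelial level was 3.18-fold (2.94 to 3.44) and 2.94-fold (2.69 to 3.21) above that of neurons. Hoxd9 stood further apart, at 73.9 and 60.6 CPM in endothelial-like cells against 16.6 and 14.1 in neurons and 8.32 and 5.08 in macrophage-like cells. Its ratio to neurons was 4.47 (3.97 to 5.02) and 4.31 (3.75 to 4.93).

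Counted by cell, a Hoxd9 UMI was found in 27.9% and 28.0% of endothelial-like cells (median depths 2961 and 3285.5 UMIs). It was found in 1.48% and 0.993% of macrophage-like cells (median depths 985 and 1004 UMIs) and in 16.4% and 13.9% of the much deeper neurons. Hoxd10, the next gene of the cluster, had 5 of its 16 control UMIs and 11 of its 16 Treg_Penk_KO UMIs in endothelial-like cells, and 7 and 3 in neurons. The low counts of Hoxd10 allow no more than that statement. The 9 endothelial markers fixed for naming the class summed to 3985 and 3713 CPM in it, against 49.0 and 48.8 in neurons.

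Of the 25 Hox genes with at least 20 UMIs over both classes, 6 were at least 2-fold higher in endothelial-like cells than in neurons in both libraries, against 20.2% of all 14180 genes tested in that way. That is a similar share (Hox genes as a group had median ratios of 1.55 and 1.10, all genes 1.04 and 1.04). Beside Hoxd8 and Hoxd9 these were Hoxa2, Hoxa3, Hoxb4 and Hoxd4. Hoxd4 had 13.5 and 15.7 CPM in endothelial-like cells and 6.18 and 7.09 in neurons, a ratio of 2.19 and 2.21. None was 2-fold lower, as were 2.74% of all genes. Measured against macrophage-like cells, 7 of 19 eligible Hox genes were higher in endothelial-like cells, against 6.62% of all genes, namely Hoxa2, Hoxa3, Hoxb3, Hoxd4, Hoxb7, Hoxd8 and Hoxd9. For Hoxd9 that ratio was 8.89 (4.90 to 18) and 11.9 (5.40 to 32.8). Intervals lay above 1 in both libraries for Hoxd4, Hoxd8 and Hoxd9 only. Those of Hoxa2 (lower bounds 0.977 and 0.806) and Hoxb3 (0.902 and 0.701) crossed 1 in both. That of Hoxa3 crossed 1 in the Treg_Penk_KO library and that of Hoxb7 in the control. Macrophage-like cells held only 2 and 2 UMIs of Hoxa2 and 3 and 1 of Hoxb7.

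In fibroblast-like cells, the connective tissue of the ganglion, the genes that stood above neurons came from the front of the clusters. Of 25 eligible Hox genes 7 were at least 2-fold higher in both libraries, beside 16.2% of all genes, and none was lower, beside 4.47%. All 7 had paralogue numbers from 1 to 4, among them Hoxa2, Hoxb2, Hoxa3, Hoxb3, Hoxb4 and Hoxc4. Hoxa2, which patterns the second pharyngeal arch, had 10.2 and 18 CPM in fibroblast-like cells against 2.07 and 1.44 in neurons and 1.51 and 1.69 in macrophage-like cells. Hoxb4, known for its role in blood stem cells, had 26.5 and 18 CPM against 4.23 and 4.54 in neurons, with 5.29 and 10.2 in macrophage-like cells. No gene of groups 5 to 9 reached the 2-fold step in both.

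The unnamed cluster led by Igfbp6, Islr, Thbs4, Cldn1 and Mgp, genes of connective tissue sheaths among them, had 323 and 352 CPM of Hox genes in 599 and 550 cells. Hoxa3, a gene of the pharyngeal arches and thymus, reached 34.6 and 42.8 CPM there, against 5.29 and 5.93 in macrophage-like cells. Its ratio of 6.53 (2.88 to 17.3) and 7.21 (3.20 to 19.0) lay above 1 throughout. Hoxb2, Hoxb3 and Hoxb4 were the other genes at least 2-fold above macrophage-like cells in both libraries, 4 of 12 eligible in all, beside 7.72% of all genes.

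Mural-like cells had the highest level of 10 of the 24 genes among the 7 named classes in both libraries, beside 11.8% of 13267 genes, but on few counts. Their 234 and 134 cells held 141 and 60 Hox UMIs in all. Hoxb2 was the best counted beside Hoxd8, with 18 and 7 UMIs (62.7 and 51.6 CPM) against 7 and 6.95 CPM in neurons. Of 3 Hox genes eligible against macrophage-like cells none was 2-fold higher in both libraries, beside 5.51% of all genes.

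Set against the macrophage-like background, the other classes had few Hox genes past the 2-fold step. Fibroblast-like cells had Hoxa3 and Hoxb3, 2 of 13 eligible, beside 5.68% of all genes. Satellite glia-like cells had Hoxa6 and Hoxb7, 2 of 22, beside 7.18%, and myelinating Schwann-like cells Hoxa2 and Hoxb7, 2 of 19, beside 3.09%. Intervals crossed 1 in at least 1 library for fibroblast-like Hoxb3, satellite glia-like Hoxa6 and myelinating Schwann-like Hoxa2 and Hoxb7. In neurons Hoxb7 and Hoxa9 passed, 2 of 25, beside 4.6%. For Hoxa9 that rests on a macrophage count of 0 in both libraries, with lower bounds of the ratio at 0.127 and 0.0882, so no difference was detectable at this depth. Hoxb7 had 3 and 1 UMIs in macrophage-like cells, so its ratios carry wide intervals, in neurons 1.03 to 14.6 and 1.13 to 249. The general neuron markers, summed as above, were also less than 2-fold higher in neurons than in macrophage-like cells. A gene short of the step is therefore not shown to be absent from neurons, and the part of carry-over in these ratios was not tested. No Hox gene was 2-fold lower in neurons in both libraries. Intervals also lay above 1 in both for Hoxd1 (1.07 to 2.11, 1.37 to 3.19) and Hoxd8 (1.05 to 1.90, 1.34 to 2.87). That held for Hoxd9 too (1.11 to 3.99, 1.27 to 7.55).

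Neurons and satellite glia-like cells, the glia that wrap sensory cell bodies, were compared over 25 eligible Hox genes. These had median ratios of neuron to glia of 0.984 and 1.05, beside 0.982 and 0.985 for all genes. None was 2-fold higher in neurons in both libraries (all genes 4.81%), and 1 was lower (all genes 19.3%). These counts moved with the settings, to 2 higher and 4 lower with Hox genes in the clustering, and to 2 higher and 3 lower with droplets of 1 library or with high Scrublet (multiplet) scores removed. The gene reported as lower was Hoxc5, at 0.739 and 0.533 CPM in neurons and 2.07 and 2.12 CPM in the glia, a ratio of 0.358 (0.257 to 0.505) and 0.251 (0.158 to 0.412). On the neuronal side Hoxd1 had ratios of 2.12 and 1.91 and Hoxd3 of 1.69 and 2.05, each past the step in 1 library. The general neuron markers, summed as above, were themselves less than 2-fold higher in neurons than in these glia. The part of carry-over in the ratios to these glia was not tested. On the glial side Hoxa2 had 0.873 and 0.453, Hoxb2 0.506 and 0.468 and Hoxb4 0.507 and 0.435, likewise past the step in 1 library, and Hoxb3 0.526 and 0.509. Hoxa9 had 8.42 and 0.508, on 1 and 7 glial UMIs. The satellite glia-like class included a cluster of 1648 deep cells (median 8981 UMIs), and without it 3 Hox genes were lower in neurons.

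**Figure D2:**
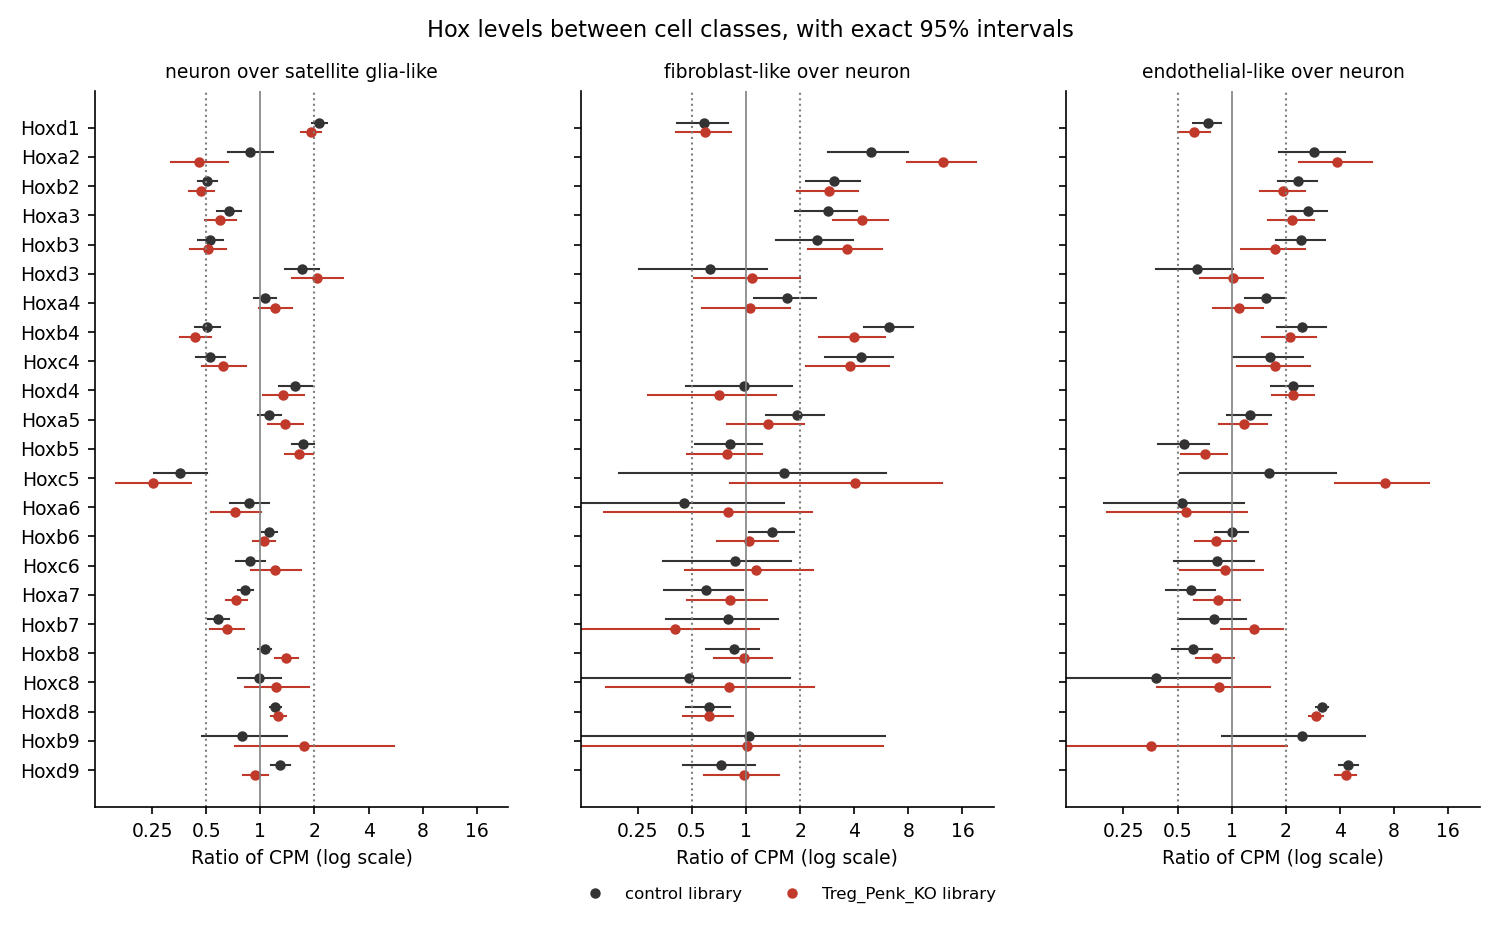
Ratio of CPM between pairs of classes (x axis, log scale) for the described Hox genes in paralogue order, with exact 95% intervals; black is the control and red the Treg_Penk_KO library, and dotted lines mark 2-fold steps. Hoxd8 and Hoxd9 lie right of 2 in the endothelial panel, and in the fibroblast panel the genes right of 2 in both libraries have paralogue numbers from 1 to 4.

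Among neurons the Hox genes differed strongly by subtype. The 10 subtypes resemble classes of sensory neurons known by their markers, 6 further neuron clusters (26.8% and 22.7% of neurons) stayed unnamed, and a subtype name below means cells that carry its markers. Ranks are over the named subtypes alone. Of 22 Hox genes with enough UMIs, 17 had the same subtype at the top in both libraries at least 2-fold above the median subtype, beside 28.9% of 12280 genes tested alike, of which 72.2% had the same top subtype in both at any height. The summed Hox level was lowest in itch neurons marked by Mrgpra3 (107 and 97.5 CPM) and in those marked by Sst and Nppb (122 and 125), followed by the Mrgprd neurons of the skin (160 and 156). It was highest in cold-sensing Trpm8 neurons (404 and 380) and in A-beta LTMR (396 and 385), fast touch receptors. In C-LTMR, the slow touch receptors, it was 241 and 248, in proprioceptors, which sense muscle stretch, 232 and 214, and in peptidergic C neurons 334 and 356.

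Paralogue group 1 differed widely by subtype. Hoxd1, which is induced by nerve growth factor in developing nociceptors, had 116 CPM (110 to 123) in control and 124 (115 to 133) in Treg_Penk_KO A-delta LTMR, the down-hair touch receptors. It was 68.8 and 70.8 in peptidergic A-fibre, 68.0 and 72.1 in peptidergic C and 52.0 and 53.2 in A-beta LTMR. Levels were 18.7 and 17.6 in Mrgpra3 neurons, 21.5 and 20.3 in Sst/Nppb neurons, 8.82 and 7.91 in C-LTMR and 7.71 and 9.81 in Trpm8 neurons. The lowest were Mrgprd neurons at 4.92 and 5.82 and proprioceptors at 7.48 and 7.77. Highest and lowest subtype thus stood 23.6-fold and 21.3-fold apart, with intervals that did not meet. An unnamed neuron cluster reached 123 and 152.

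Groups 2 and 3 were highest in C-fibre and cold subtypes. Hoxa2 had 8.33 and 5.14 CPM in Trpm8 neurons (27 and 11 UMIs) and 5.26 and 3.02 in Mrgprd neurons, and at most 1.67 in any other named subtype. Hoxb2 peaked in peptidergic C neurons at 12.6 and 16.1 CPM and was lowest in Sst/Nppb neurons at 2 and 1. Hoxb3 was highest in Mrgprd neurons at 7.54 and 6.87 CPM, with Trpm8 next at 5.55 and 5.14. Hoxd3 had 18.9 and 22.1 CPM in peptidergic C and 13.3 and 13.5 in Trpm8 neurons, against 2.62 and 3.13 in Mrgprd neurons. Hoxa3 reached 11.1 and 9.34 CPM in Trpm8 neurons, but the subtypes next to it, C-LTMR and Mrgprd, lay within counting error.

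In groups 4 and 5 the clusters parted. Hoxb4 and Hoxd4 followed Hoxb2 and Hoxd3 to peptidergic C neurons, with 9.48 and 9.49 CPM for Hoxb4 and 18.7 and 18 for Hoxd4. Hoxa4 and Hoxb5 were highest in C-LTMR. Hoxb5 had 43.5 and 47.1 CPM there and 23.7 and 24.3 in Mrgprd neurons, against 1.98 and 3.07 in Mrgpra3, 2.34 and 2.81 in Sst/Nppb neurons and 3.56 and 3.85 in proprioceptors. Hoxa4 varied less, from 17.9 and 18 CPM in C-LTMR down to 7.23 and 6.80 in the lowest subtype. Hoxa5, which maintains the motor neurons of the diaphragm, was highest in Trpm8 neurons at 36.7 and 39.7 CPM, then in C-LTMR at 21.6 and 20.8, and was 2.17 and 1.14 in Mrgpra3 and 1.5 and 1.2 in Sst/Nppb neurons. Hoxc4 had 11.1 and 8.88 CPM in Trpm8 neurons and 5.30 and 6.69 in proprioceptors. Hoxc5 stayed too low to be ranked, with 11 and 5 UMIs in Trpm8 neurons.

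Groups 6 and 7 were shared between Trpm8 neurons and the large-fibre subtypes. Hoxa7 had 66.0 and 51.9 CPM in Trpm8 neurons and 28.7 and 23.6 in proprioceptors, against 1.67 and 1.6 in Sst/Nppb neurons. Hoxa6 (14.8 and 14.5) and Hoxb7 (24.7 and 19.2) also peaked in Trpm8 neurons. Hoxc6, a gene of limb-level motor neurons, was about as high in proprioceptors (13.5 and 15.3) as in Trpm8 neurons (14.2 and 11.2), and the order of the pair changed between libraries. Hoxb6 instead was highest in A-beta LTMR at 51.9 and 49.0 CPM, with A-delta LTMR at 36.0 and 37.2 and Trpm8 neurons at 34.2 and 35.0. Its lowest level was 1.88 and 2.39, in Mrgpra3 neurons.

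Hoxb8, whose loss in mice brings excessive grooming and altered pain responses, was one of the most unequal. Control A-beta LTMR had 97.8 CPM (93 to 103) and Treg_Penk_KO A-beta LTMR 90.8 (84.5 to 97.4). Proprioceptors followed at 39.6 and 40.5, Trpm8 neurons at 21.9 and 21.0, peptidergic A-fibre neurons at 13.9 and 15 and A-delta LTMR at 10.4 and 9.81. All other named subtypes were at or below 6.58 CPM, and Mrgpra3 neurons were lowest at 1.22 and 0.909 (13 and 8 UMIs). The A-beta and A-delta LTMR thus stood further apart in Hoxb8 than in Hoxb6. The A-beta LTMR name rested on a single cluster with 3 of its markers raised. With finer clustering (Leiden resolution 2) no neuron cluster received that name. The top rank of A-beta LTMR for Hoxb8 and Hoxb6 could therefore not be checked under that setting. Hoxd8 was spread over all subtypes, from 30.1 and 29.5 CPM in Mrgprd neurons to 85.7 and 92.8 in peptidergic C.

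Hoxc8, which gives motor neurons of the distal forelimb their identity, was counted almost entirely in proprioceptors among the named subtypes. It had 317 UMIs in control and 213 in Treg_Penk_KO proprioceptors, or 11.5 CPM (10.3 to 12.8) and 13.4 (11.7 to 15.4). A-beta LTMR came next with 18 and 15 UMIs, 1.13 and 1.77 CPM. In A-delta LTMR it was at 0 in both libraries, where the intervals reach 0.346 and 0.584 CPM. Among unnamed neuron clusters the highest values were 8.67 CPM (control) and 8.06 CPM (Treg_Penk_KO), in different clusters. Hoxd9 was highest in peptidergic A-fibre neurons in the control (29.4 CPM) and in A-delta LTMR in the Treg_Penk_KO library (29.3 CPM), and had 52 and 67 UMIs in Mrgprd neurons. Of the low genes of group 9, Hoxa9 had 9 and 13 UMIs in Trpm8 neurons and Hoxb9 29 and 14 in A-beta LTMR. For Hoxb9 the top subtype differed, since peptidergic A-fibre neurons of the Treg_Penk_KO library had 25 UMIs (2.70 CPM).

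**Figure D3:**
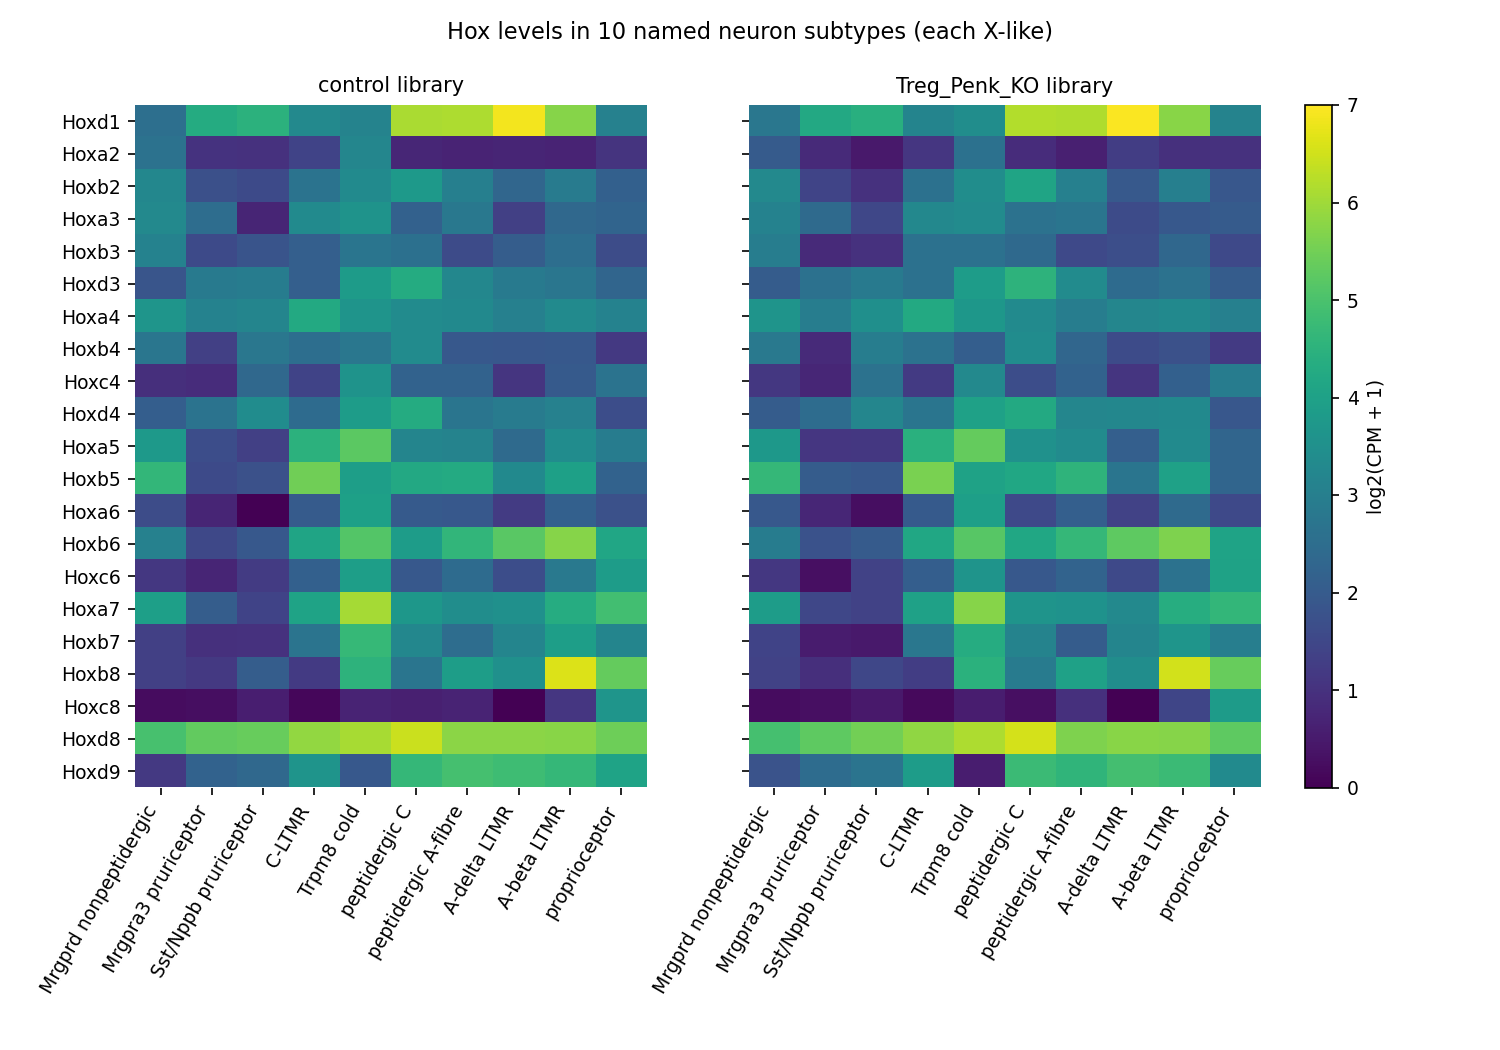
Level of Hox genes (rows, in paralogue order) in the 10 named neuron subtypes (columns) as log2(CPM + 1) by colour, 1 panel per library. Both panels show Hoxd1 brightest in A-delta LTMR, Hoxb8 in A-beta LTMR, Hoxa7 in Trpm8 cold neurons, Hoxb5 in C-LTMR and Hoxc8 in proprioceptors, while the columns of Mrgpra3 and Sst/Nppb neurons are dark for most genes of groups 5 to 7.

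The order of subtypes repeated between libraries. Over the 10 subtypes the log level of a gene in one library followed that in the other with a Pearson r from 0.878 (Hoxb3) to 0.996 (Hoxd1), given as a description since the subtypes share the library, its depth and its clustering. The same measure compared genes with each other. Neighbours in a cluster had a median r of 0.719 and 0.610 (17 pairs), genes of the same cluster further apart 0.540 and 0.494 (38 pairs), paralogues 0.410 and 0.426 (19 pairs) and other pairs 0.169 and 0.176 (157 pairs). Hoxa6 with Hoxa7 (0.920 and 0.892), Hoxa5 with Hoxa6 (0.914 and 0.896), Hoxb6 with Hoxb7 (0.890 and 0.914) and Hoxd3 with Hoxd4 (0.887 and 0.891) were the 4 most alike neighbours in the control, and Hoxd4 with Hoxd8 had 0.719 and 0.904. The ranges overlapped, in the control from 0.484 to 0.920 for neighbours, -0.541 to 0.838 for paralogues and -0.762 to 0.834 for other pairs. Hoxa7 with Hoxb7, of different clusters, had 0.838 and 0.873. Hoxd3 and Hoxd4 overlap in the annotation, and the part of that overlap in their likeness was not tested.

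Within its top subtype a Hox gene could be spread over the cells or confined to a few. The number of cells with a UMI was set against the number an even spread of the gene's UMIs would give at the depth of each cell. Hoxd1 in A-delta LTMR had 174 of 227 and 111 of 156 cells with a UMI, 100% and 103% of an even spread. Over 10 further genes with enough counts the share ran from 81.9% to 104%, near the all-gene medians of 97.7% to 99.1%. Hoxc8 and Hoxa7 lay furthest below. Only 76 of 806 and 57 of 659 proprioceptors had a Hoxc8 UMI (9.43% and 8.65%), which is 41.4% and 45.3% of an even spread, and single cells held up to 40 and 45 UMIs. In proprioceptors 2.27% of 9572 genes were at or below 75% in both libraries. That share was 0.707% in A-delta LTMR, 0.67% in A-beta LTMR, 0.566% in C-LTMR, 1.39% in peptidergic A-fibre, 2.83% in peptidergic C and 1.75% in Mrgprd neurons, where the other Hox genes were measured.

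Of the macrophage-like cells 0.403% and 0.993% had a Hoxc8 UMI, at median depths of 985 and 1004 against 8522 and 5437 UMIs in proprioceptors. Hoxa7 in Trpm8 neurons had 60 of 260 and 49 of 212 cells with a UMI, 57.6% and 73.5% of an even spread, beside 1.75% of 4960 genes at or below 75%. Ganglia of 6 segments were pooled, and the segment of each neuron was not known here, so level along the neck and subtype cannot be told apart for either gene. With each proprioceptor thinned to 5000 UMIs, 17 of 532 and 20 of 356 kept a Hoxc8 UMI. Hoxc6, the neighbour of Hoxc8, was found in 2 of those 17 and 4 of those 20, and in 31 of 515 and 16 of 336 proprioceptors without Hoxc8. The exact intervals of these shares overlapped for the control, at 1.46% to 36.4% against 4.13% to 8.44%, and for the Treg_Penk_KO library, at 5.73% to 43.7% against 2.75% to 7.62%.

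**Figure D4:**
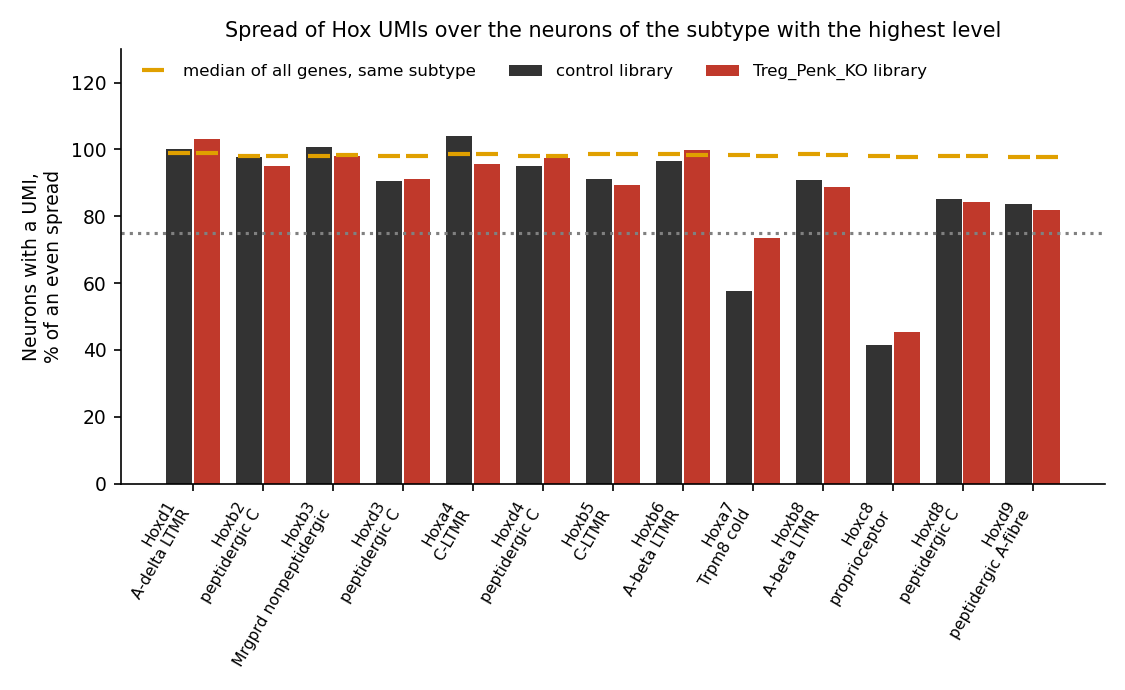
Neurons with at least 1 UMI of a gene as a percent of the number an even spread would give (y axis), in the subtype with its highest control level, for the 13 Hox genes with enough counts; bars are the control (black) and Treg_Penk_KO (red) libraries, dashes the median of all genes. Hoxc8 (41.4% and 45.3%) and Hoxa7 (57.6% and 73.5%) lie below the dotted line at 75%.

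Barcodes of the neuron class could hold several Hox genes, up to 21 (control) and 18 (Treg_Penk_KO). Satellite glia-like barcodes reached 19 and 17, and macrophage-like ones 8 and 11. Multiplets were estimated at 22.8% and 16.8% of cells and were not removed. A neuron counted here can therefore be a barcode with more than 1 cell, and the part of multiplets in these maxima was not tested. Thinned to 5000 UMIs, 4427 control and 3072 Treg_Penk_KO neurons had a median of 1 Hox gene, and 66.3% and 65.9% had any. Hoxd8 was found in 21.0% and 20.6% of them, Hoxd1 in 13.8% and 15.4% and Hoxb8 in 8.63% and 8.27%. For 171 pairs of genes the share of neurons with the second gene was compared between neurons with and without the first, and the median ratio was 1.12 and 1.16. Over all 67680795 pairs of 11635 genes chosen alike the median was 1.00 in both. In 42 pairs of Hox genes the share was at least 25% higher with the first gene in both libraries, beside 4.17% of all pairs. With the expected share taken from neurons of the same subtype clusters, 24 pairs were that much higher (all pairs 2.13%) and 13 had a ratio of at most 0.8 (all pairs 2.55%). Genes found in more neurons than the Hox genes are among these pairs, and the part of detection in the shares was not tested.

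Hoxa6 with Hoxa7 was among the pairs above the share expected from subtypes. Of neurons with Hoxa6, 13 of 64 and 11 of 44 had Hoxa7, 20.3% and 25% against 7.86% and 7.30% of neurons without Hoxa6. That is 2.20-fold and 3.04-fold the share expected from the subtypes. Hoxa5 with Hoxb7, genes of different clusters, gave 7.30% and 6.37% against 2.82% and 2.68%, or 2.03-fold and 2.08-fold the expected share. Hoxa7 with Hoxb7 gave 1.72-fold and 1.88-fold. Hoxd3 and Hoxa6 lay at the other end and were not found together in 162 and 104 neurons with Hoxd3, where the 1.5% and 1.48% of other neurons with Hoxa6 would give only a few cells. Hoxd1 with Hoxc6 gave 0.361-fold and 0.514-fold the expected share.

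Between the libraries, 17 of 25 Hox genes with at least 100 UMIs in neurons had a ratio, Treg_Penk_KO over control, below 1, as had 52.5% of all genes. The 25 had a median ratio of 0.954, beside 0.996 for all 13560 genes, and ranged from 0.697 to 1.23. None was at least 25% higher, as were 2.33% of all genes, and 5 had a ratio of at most 0.8, as had 4.34%. The neurons summed here differed in make-up, since an unnamed neuron cluster gave 343 and 82 cells (4.81% and 1.49% of neurons) and another 306 and 155, and the part of this was not tested. With subtypes weighted equally 2 genes were higher and 3 lower. The 5 genes lower without that weighting included Hoxa2, with 2.07 CPM in control and 1.44 in Treg_Penk_KO neurons. Its ratio was 0.697 (0.584 to 0.830). Others were Hoxc5 (0.720, 0.534 to 0.963), Hoxb7 (0.780, 0.711 to 0.855) and Hoxa9 (0.799, 0.525 to 1.2), the last with an interval across 1. Counting intervals lay below 1 for 9 genes (all genes 27.2%) and above 1 for Hoxd4 only (ratio 1.15, lower bound 1.05, all genes 23.5%). With 1 pool of mice per group, the spread between pools of the same genotype is unknown, and library, pool and genotype cannot be told apart.

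The lower Hoxa2 was seen in the subtype with most of its UMIs. In Mrgprd neurons Hoxa2 had 219 and 83 UMIs, a ratio of 0.574 (0.441 to 0.743). Hoxa3, the next gene of the cluster, had 0.862 (0.724 to 1.02) and Hoxa4 0.975 there. Proprioceptors had less Hoxa5 (0.577, 0.424 to 0.774) and Hoxd9 (0.589, 0.485 to 0.712), and Mrgprd neurons more Hoxd9 (1.95, 1.34 to 2.86). Among 111 combinations of a gene and a named subtype with enough counts, intervals lay below 1 in 9 and above 1 in 5, beside 10.2% and 8.49% of 99357 such combinations over all genes.

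Other classes gave ratios on fewer counts. The median was 0.970 over 19 genes in satellite glia-like, 0.890 over 16 in myelinating Schwann-like and 0.820 over 9 in endothelial-like cells, beside all-gene medians of 1.01, 0.999 and 0.998. In satellite glia-like cells 1 gene was higher (Hoxd4, 1.34, interval across 1; all genes 3.46%) and 3 lower, Hoxb8 (0.658), Hoxc6 (0.660) and Hoxb7 (0.700), beside 3.7% of all genes. In myelinating Schwann-like cells Hoxb3 was higher (1.43, all genes 4.15%) and Hoxb4 (0.637), Hoxb7 (0.746) and Hoxa5 (0.782) were lower (all genes 3.19%). Endothelial-like cells had none higher (all genes 5.65%) and 3 lower, Hoxa4 (0.710), Hoxb6 (0.738) and Hoxa3 (0.791), beside 6.09% of all genes and each with an interval across 1. Hoxd8 (0.883, 0.787 to 0.990) and Hoxd9 (0.820, 0.690 to 0.973) of endothelial-like cells lay between the steps.

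**Figure D5:**
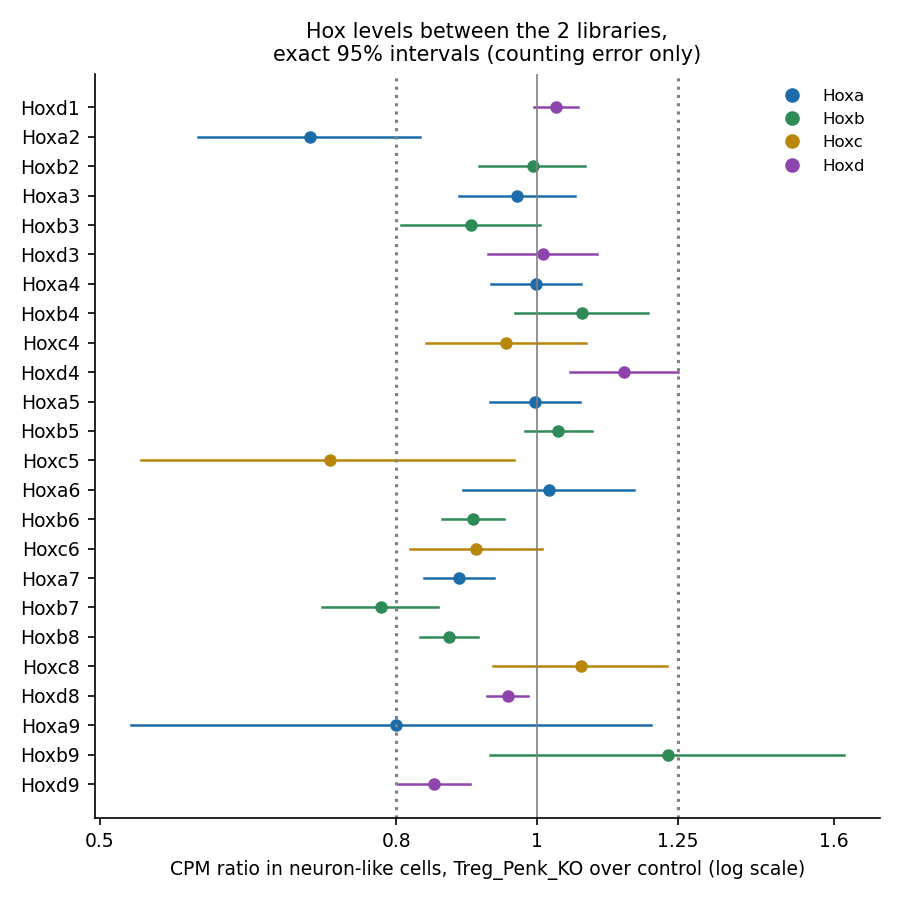
Ratio of CPM in neurons, Treg_Penk_KO over control (x axis, log scale), for Hox genes in paralogue order with exact 95% intervals for counting error, coloured by cluster; dotted lines mark the steps. Hoxa2, Hoxc5, Hoxb7 and Hoxa9 lie at or left of the lower step and no gene lies right of the upper.

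HOX proteins bind DNA together with TALE homeodomain partners, and all 9 partners on the list were measured. None passed the steps between libraries in neurons (median ratio 0.938). A shared top subtype at least 2-fold above the median was seen for 3 of 9 (all genes 28.9%), among them Pbx3 in A-delta LTMR (53.6 and 55.7 CPM) and Pknox2 in Mrgprd neurons (229 and 228). Across classes Meis1 had 33.7 and 25.2 CPM in fibroblast-like cells against 7.64 and 7.08 in neurons.

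Retinoic acid sets the front limit of many Hox genes in the embryo. Of 17 genes of its synthesis, breakdown and reception, 14 were eligible between libraries in neurons, 3 were higher and 2 lower, beside 2.33% and 4.34% of all genes. The synthesis enzyme Aldh1a3 had 1.10 and 1.97 CPM (ratio 1.78, 1.49 to 2.14), the receptor Rxrg 16.1 and 20.4 (1.26) and the binding protein Crabp2 0.428 and 0.564 (1.32, interval across 1). Aldh1a1 had 7.44 and 5.46 CPM (0.733). Fibroblast-like cells exceeded neurons by 2-fold in 11 of 15 genes, beside 16.2% of all genes, led by Cyp26b1, which breaks retinoic acid down, at 577 and 514 CPM against 6.76 and 5.96.

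Polycomb proteins keep silent Hox genes silent and trithorax proteins keep active ones active. Of 24 eligible Polycomb genes and 11 of the trithorax list none passed these steps in neurons, with medians of 0.997 and 1.06. Phc1 had 13.8 and 18.7 CPM in fibroblast-like cells against 3.57 and 3.12 in neurons, 1 of 4 Polycomb genes higher there among 25, a share like the 16.2% of all genes. The 6 Cdx and ParaHox genes, relatives of the Hox clusters, had at most 21 and 8 UMIs in neurons, those of Cdx1. Among 8 homeobox genes of the brain and other regions outside the clusters, only Gbx1 was well counted, with 743 and 453 UMIs in neurons. Gbx1 was highest in Mrgpra3 neurons at 9.99 and 9.31 CPM, the subtype with the lowest summed Hox level, and had a library ratio of 1.01.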

How the data were processed

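UMI counts per gene and cell barcode were deposited. Per the labels' protocols and the matrix header the authors made them with Cell Ranger (7.0 in the protocol, 8.0.1 in the header) on GRCm39 (mm39). A multiplexed fixed-RNA probe kit was used, and counts therefore depend on the probes of a gene. The submitters' processing notes also name Seurat, without saying for what.

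Cells with 500 UMIs and 300 genes or more (15690 control and 12053 Treg_Penk_KO) were clustered with scanpy 1.11.5 and igraph 0.11.9, without integration, on 3000 variable genes and 40 principal components at Leiden resolution 1. Hox genes were left out, of which 2 would have been variable genes, and neurons were clustered again alone. Clusters were named from fixed markers. No doublets were removed.

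UMIs were summed per library and class. Intervals are exact Poisson (CPM), exact conditional binomial (ratios) and Clopper-Pearson (shares), at 95% (scipy 1.17.1). The ratio between libraries in neurons, with its interval and step, was tried on simulated counts that held counting error only. Clustering, naming and the other measures were not simulated. With 1 library per group no test was run. A gene counted as changed when at least 25% higher, or at a ratio of at most 0.8, between libraries (100 UMIs over both), or 2-fold apart in both libraries between classes (20 UMIs). Hox genes with 100 UMIs in each library are described in full and the others by range or by name. From other lists, genes past a step and the highest of a list are named, except a few items that are not reported here. Homeoboxes and upstream windows were read from GRCm39 with GENCODE annotation. The members and lists were chosen with earlier results of these data known. Alternatives covered depth, cell weights, shared droplets, filters, multiplets and clustering.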

Additional observations from a re-analysis of the deposited data

How the results depend on the processing

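No paired analysis was possible because each group is 1 library, and no replicate could be left out for the same reason. Of 285 alternative values of counts and medians 228 were close to those reported and 57 moved. Among the further values checked, such as ratios of single genes, 366 were close, 121 moved and 1 reversed. With each cell weighted equally 30 of these further values moved and 26 were close. With each cell thinned to 500 UMIs 29 moved, 1 reversed and 14 were close. A further 12 alternatives gave no value. Leaving out deep glial clusters, keeping neurons of at least 5000 UMIs and taking expected shares from the same subtypes were added after seeing the data. The causes below were not tested unless the alternative itself leaves fewer cells or UMIs.

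Each cell thinned to 500 UMIs left few counts. Genes higher in endothelial-like cells than in neurons went from 6 to 3 and in fibroblast-like cells from 7 to 3, with 1 and 2 lower. Neurons had 1 gene higher and 2 lower than satellite glia-like cells. Genes above the floor were 10 and 6 in endothelial-like, 6 and 5 in macrophage-like, 5 and 1 in mural-like and 14 in Treg_Penk_KO myelinating Schwann-like cells. Genes highest in mural-like cells went from 10 to 4, and those with a clear top subtype from 17 to 0. Between libraries 1 gene was higher and 0 lower. Hoxd4 in peptidergic C over the median subtype turned from 2.18 to 0.970 in the Treg_Penk_KO library.

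Neurons had 2 Hox genes higher than satellite glia-like cells with Hox genes in the clustering (4 lower), with droplets of 1 library or with high Scrublet scores removed (3 lower each). They had 3 lower with each cell weighted equally or deep glial clusters left out, 2 with neurons of at least 5000 UMIs and 0 at a 4-fold step. That step left 1 gene higher in endothelial-like and 1 in fibroblast-like cells. Equal weights gave 3 genes lower in endothelial-like and 2 in fibroblast-like cells than in neurons, and Scrublet filtering 1 in the latter.

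Between libraries 1 gene was higher under equal cell weights, Scrublet filtering, a minimum of 30 UMIs, deep neurons only, droplets of 1 library or Hox genes in the clustering, and 2 with subtypes weighted equally. Under the last 3 settings 3 genes were lower instead of 5. Genes highest in fibroblast-like cells went from 2 to 1 with deep glial clusters left out, droplets of 1 library, Scrublet filtering or at least 1000 UMIs and 600 genes, which also gave 3 for mural-like cells and 1 there above the floor. Droplets of 1 library left 5 above it. A floor of 10 left 7 and 8 in macrophage-like and 3 and 0 in mural-like cells. Co-detected pairs went from 42 to 16 at 2000 UMIs (median 1.016) and to 24 with expected shares from the same subtypes, and the control median to 1.24 with droplets of 1 library.

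Endothelial-like over neuronal Hoxd9 ranged from 4.35 to 9.63 in the control and from 4.30 to 7.10 in the Treg_Penk_KO library over all alternatives with a value, Hoxd8 from 3.17 to 3.74 and from 2.42 to 3.73.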
